A study of Triticum aestivum with 3 samples.

Results

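Among the genes of hexaploid bread wheat, those with very long transcripts were examined in RNA-seq libraries of 3 biological replicates of seedling shoots of the cultivar Chinese Spring, whose genome is the wheat reference. The long genes were chosen by length alone: a high-confidence gene (an identifier without the suffix LC) belongs to them when its longest listed transcript has 6000 bases or more. This holds for 511 of 105200 high-confidence genes (0.486%), out of 165276 genes in all, and the remaining 104689 high-confidence genes served as the comparison. The plants were wild type, grown on plates under long days, and untreated. Their age is given as both 12 and 14 days in the labels. There is 1 condition and 1 group, so that nothing was compared between samples of different kinds, and the spread given is that of the replicates.

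In plants, transcripts of this size typically encode very large proteins, such as HECT-type ubiquitin ligases, callose synthases (which build the callose of cell plates and plasmodesmata), ATP-dependent chromatin remodellers, and the giant scaffold proteins of membrane traffic. Many of these serve in every living cell. A long transcript takes more time to copy and process, and a sequencing library draws more fragments from it than from a short transcript present in the same number of copies. TPM, a relative transcript abundance, divides the reads by transcript length, and therefore allows levels of genes of different lengths to be set side by side, while estimated counts do not. Which of the 511 genes encode which protein is not paired with their identifiers in the tables used here. Genes are thus given by identifier, in which the digit and letter after TraesCS name the chromosome and its subgenome (A, B or D), and no role is assigned to any of them. For the same reason the shoot label was not checked against marker genes.

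The libraries held 67470696 to 76337649 estimated counts, the fewest in replicate 3. The long genes took up 1031690 estimated counts in replicate 1, 1033365 in replicate 2 and 498881 in replicate 3. This was 1.46%, 1.44% and 0.777% of the counts of high-confidence genes, and in TPM, where length is divided out, 0.212%, 0.217% and 0.106%. Replicate 3 stood apart with a lower share on either scale. In that library the 10 most abundant transcripts of the table made up 26.5% of the TPM, against 19.6% and 19.2% in replicates 1 and 2, and the mean fragment length was 166 bases, against 169 and 177. The part of these features in the values of replicate 3 was not tested.

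The longest transcripts of the 511 genes had a median of 6859 bases, against 1401 bases for the other high-confidence genes. Of the long genes, 278 lay between 6000 and 6999 bases, 105 between 7000 and 7999, 73 between 8000 and 9999, 26 between 10000 and 11999, and 29 reached 12000 bases or more. The longest was TraesCS1D02G030200 with a single transcript of 46252 bases. It was followed by TraesCS3B02G600117 with 31456, TraesCS1A02G004126 with 28918, TraesCS7A02G006900 with 21872 and TraesCS1D02G021751 with 19052 bases. These 5 lie near a chromosome end by their rank in the gene order, within 7.01% of the order from the start or, for TraesCS3B02G600117, at 97.9%. Each of the 5 has 1 listed transcript.

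Nearly all long genes gave transcripts in shoots. By the median of the replicates, 496 of 511 (97.1%; 95% exact binomial interval 95.2 to 98.3) had a TPM above 0, the rule for expressed genes in the study's methods, against 70266 of 104689 other high-confidence genes (67.1%). Over all high-confidence genes the share was 67.3%. In single replicates the shares were 97.1% ± 0.407 for long genes and 67.7% ± 1.02 for the others (SD, n = 3), a difference of 29.4 percentage points ± 1.43, far wider than the spread between replicates. The intervals given with shares cover counting error over genes only. The call seldom depended on the library: 493 long genes (96.5%) had a TPM above 0 in each of the 3 replicates and 11 (2.15%) in none, where over all high-confidence genes 62.0% and 25.7% were so. Another 3 genes were above 0 in 2 replicates and 4 in 1 replicate.

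A TPM above 0 is more easily passed by a long gene, since 3 estimated counts correspond to a median of 0.00564 to 0.00598 TPM in long genes with a single transcript and of 0.0276 to 0.0294 TPM in the others. The difference was therefore also read at a level far above that floor. At a median TPM of at least 1 there were 364 long genes (71.2%), against 37981 others (36.3%), with 36.4% over all high-confidence genes. Single replicates gave 67.7% ± 6.79 and 35.7% ± 1.99 (SD, n = 3). Replicate 3 was the lowest in both groups, with 59.9% of the long genes and 33.5% of the others. At 0.1 TPM the shares were 87.5% and 54.3%, with 54.5% over all high-confidence genes, and at 0.5 TPM they were 79.3% and 42.6%, with 42.8% over all. With at least 3 estimated counts in the median replicate, 493 long genes (96.5%) and 60.8% of the others were called, with 60.9% over all high-confidence genes.

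The share of expressed genes was higher with each step in length up to about the limit that defines the long genes, and was then flat. It was 34.9% among genes whose longest transcript is under 600 bases, 66.7% at 1000 to 1499, 84.2% at 2000 to 2999, 94.9% at 4000 to 4999 and 96.7% at 5000 to 5999 bases. Within the long genes it lay between 94.5% (8000 to 9999 bases) and 100% (12000 bases and over, 29 genes). The share with a TPM of at least 1 went on climbing to 61.3% at 5000 to 5999 bases and 72.3% at 6000 to 6999 bases, while the longer classes lay between 65.5% and 76.9%, with replicate SDs of 2.22 to 10.3 percentage points. No break was thus seen at the limit of 6000 bases. In the 81 genes of 6000 to 6249 bases, 95.1% were expressed and 63.0% had a TPM of at least 1, against 99.2% and 71.3% in the 122 genes of 5750 to 5999 bases just outside. Nearest to the limit, TraesCS2B02G486200 (6000 bases) had 0.237, 0.280 and 0.137 TPM in replicates 1, 2 and 3, and TraesCS2A02G558100 (6003 bases) had 0 in each. Just outside, TraesCS1B02G012800 (5999 bases) had 0.0161, 0.0466 and 0.0156 TPM and TraesCS6A02G309200 (5998 bases) had 7.34, 8.73 and 3.90 TPM.

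**Figure D1:**
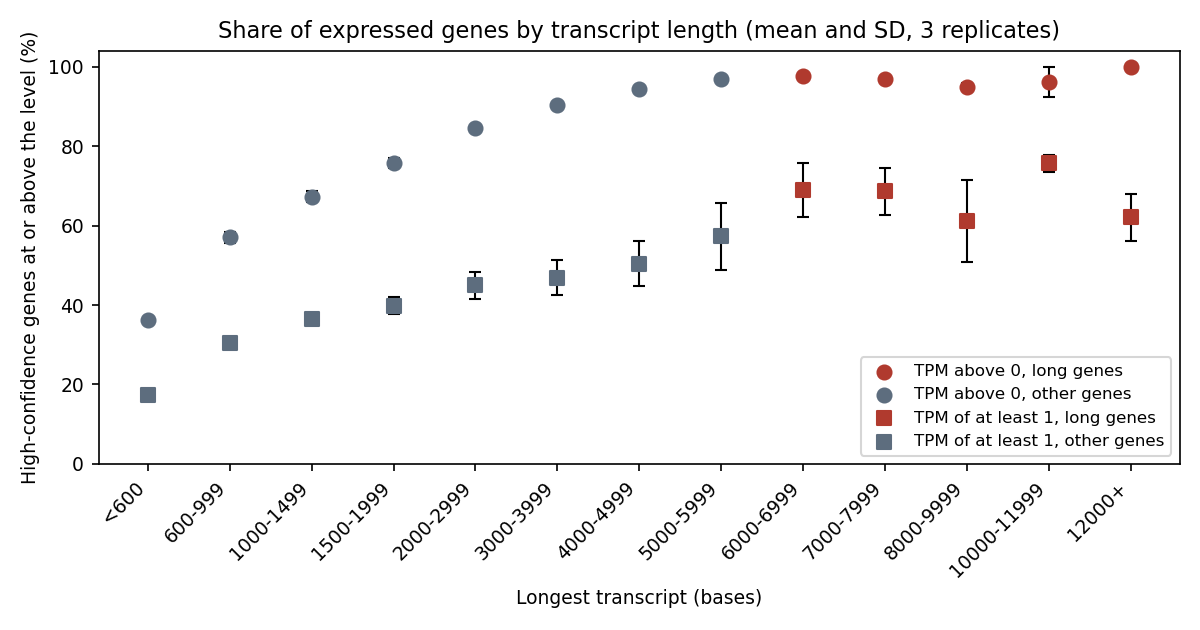
Share of high-confidence genes (%) with a TPM above 0 (circles) and of at least 1 (squares) by the length of the longest transcript in bases. Points are means of the 3 replicates taken singly, bars are SDs, and long genes are in red. The circles lie between 94.98% and 100% and the squares between 61.2% and 75.6% in the classes of long genes.

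Gene models can differ between the groups as well as genes. A complete coding model without untranslated regions has a length divisible by 3, though other models may have one too. The length of the longest transcript was divisible by 3 in 166 long genes (32.5%) and in 54.0% of the others. Genes whose longest transcript is not divisible by 3 were expressed in 97.97% (345 long genes) and 78.1% (the others), with replicate SDs of 0.290 and 1.38 percentage points, and reached at least 1 TPM in 73.6% and 44.9%. Among genes divisible by 3 the shares expressed were 95.2% and 57.7%. The gap between long and other genes was thus 19.9 percentage points among lengths not divisible by 3, in place of 29.9 over all genes. Identifiers that are not a multiple of 100 were borne by 8 long genes (1.57%) and 0.470% of the others.

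The long genes kept to a narrow range of moderate levels. The 496 expressed ones had a median of 2.73 TPM, with quartiles of 0.870 and 4.98, and the highest of them reached 26.5 TPM. In whole shoots, a low level in every cell and a high level in few cells cannot be told apart. The 70266 other expressed genes had a median of 1.31 TPM, with quartiles of 0.180 and 5.08, and reached 77515 TPM. By length, the median of expressed genes was 1.39 TPM at 4000 to 4999, 1.76 at 5000 to 5999 and 2.74 at 6000 to 6999 bases. It was 2.44 TPM at 5750 to 5999 bases, just outside the limit, and 2.69 at 6000 to 6249 bases. A median above that of the other genes pooled was thus not particular to the long genes. In single replicates the medians were 2.73, 2.89 and 1.37 TPM in long genes and 1.34, 1.44 and 0.933 TPM in the others, so that the log2 ratio of the medians was 1.03, 1.01 and 0.55. The direction depends on the genes admitted. Among genes with a median of at least 1 TPM, the 364 long ones had a median of 3.57 TPM and the 37981 others 4.57 TPM, a log2 ratio of -0.35. Both ends of the range were thinner in long genes: 47.0% of them lay at 1 to 5 TPM and 19.0% at 5 to 10 TPM, against 19.3% and 7.82% of the others. At 10 TPM or more there were 27 long genes (5.28%), against 9.15% of the others, with 9.13% over all high-confidence genes. In replicates 1, 2 and 3 the shares were 5.68%, 6.46% and 1.17% in long genes, and 9.36%, 9.80% and 6.81% in the others, so that the gap was widest in relative terms in replicate 3. At 30 TPM or more there were 0 of 511 long genes, which allows a share of up to 0.719%, and 2870 of the others (2.74%).

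**Figure D2:**
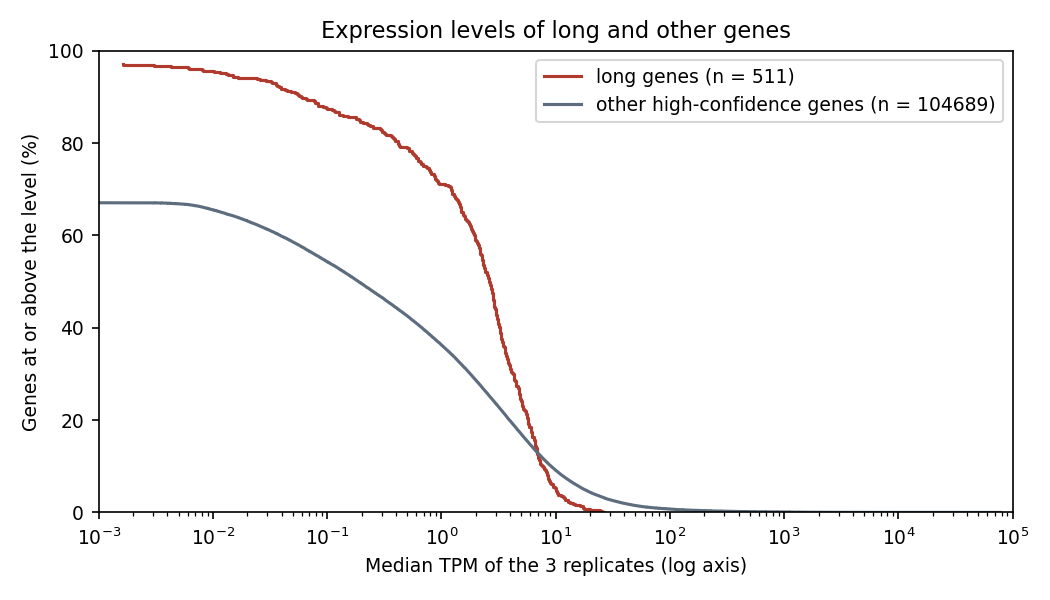
Share of genes (%) at or above each level, by the median TPM of the 3 replicates on a log axis, for the 511 long genes (red) and the 104689 other high-confidence genes (grey). The red curve starts higher, at 97.1% against 67.1%, and drops steeply between 1 and 10 TPM, below the grey one from there on.

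The same levels rest on far more reads in long genes. An expressed long gene had a median of 1451 estimated counts and a lower quartile of 524, whereas the other expressed genes had a median of 130 and a lower quartile of 15.7. Single replicates gave 1478, 1474 and 703 counts in long genes, and 137, 139 and 90.1 in the others. Even the 49 expressed long genes below 0.1 TPM had a median of 19.5 estimated counts. Across the 496 expressed long genes, Spearman's rho between length and median TPM was -0.0224, given as a description over genes, which share the libraries and are not independent.

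The most abundant long gene by the sum over its transcripts was TraesCS1B02G017800, with 29.3, 26.5 and 13.8 TPM in replicates 1, 2 and 3. That value is not one of a long transcript: its transcript of 7920 bases had 0.265, 0.224 and 0.129 TPM, a median of 0.903% of the gene's TPM, and nearly all the rest came from a transcript of 3704 bases. The level of this gene thus belongs to a shorter isoform. TraesCS6D02G336800, with a single transcript of 6258 bases, had 25.7, 29.5 and 18.4 TPM. TraesCS6A02G354400 (6441 bases) had 20.1, 26.5 and 14.0 TPM, and TraesCS6B02G387400 (6097 bases) had 17.9, 24.7 and 14.1 TPM. These 3 genes are of like length and lie at 82.5%, 83.9% and 81.9% of the gene order on chromosomes 6D, 6A and 6B, 1 on each subgenome. Whether they are homoeologous copies is not stated in the tables, and reads of near-identical copies may have been divided between them. All 3 were highest in replicate 2 and lowest in replicate 3.

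TraesCS6B02G122200 had 25.3, 24.5 and 9.40 TPM on a single transcript of 13167 bases. It gathered the most reads of all long genes, with 25953, 24146 and 9063 estimated counts. The next by reads was TraesCS6D02G089000, 12490 bases long, with 17.5, 17.4 and 12.7 TPM and a median of 16180 estimated counts, and then TraesCS6D02G336800, with 12329. Relative to the mean of replicates 1 and 2, replicate 3 differed by -1.40 in TraesCS6B02G122200 and by -0.46 in TraesCS6D02G089000 on the log2(TPM + 0.1) scale. TraesCS3B02G087600, with transcripts of 6574 and 6466 bases, had 17.4, 18.3 and 9.38 TPM, almost all from the longer one. Of the 5 longest genes, all were expressed in each replicate, at lower levels: TraesCS1D02G030200 had 0.870, 0.864 and 0.456 TPM, which rest on 3162, 3015 and 1558 estimated counts. TraesCS3B02G600117 had 0.650, 0.618 and 0.294 TPM, and TraesCS1A02G004126 had 0.569, 0.601 and 0.297 TPM. TraesCS7A02G006900 had 0.419, 0.377 and 0.138 TPM, and TraesCS1D02G021751 had 0.179, 0.192 and 0.119 TPM. Thus none of the 5 reached 1 TPM in any replicate, and in each the value of replicate 3 lay below the other two.

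**Figure D3:**
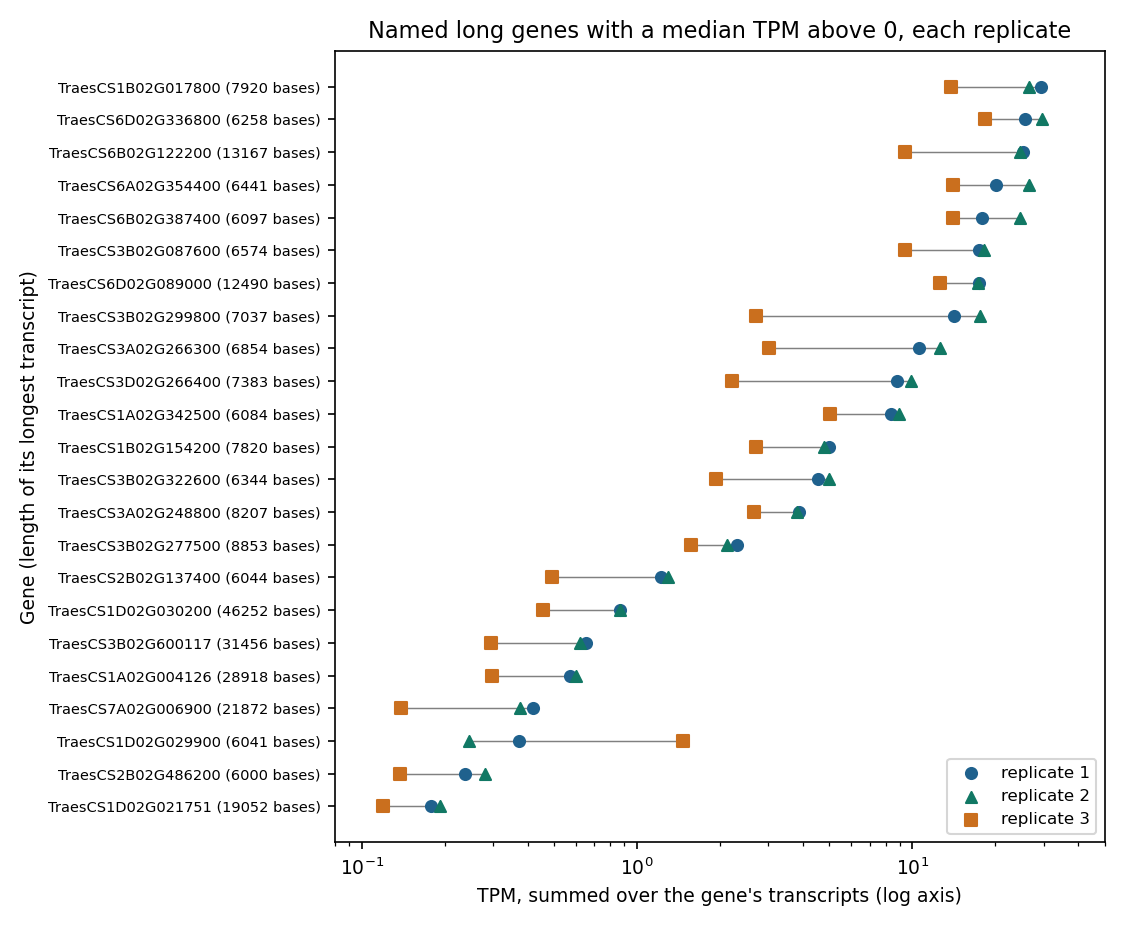
TPM per gene (the sum of its transcripts, log axis) in replicates 1 (circles), 2 (triangles) and 3 (squares) for the named long genes with a median TPM above 0. Gene labels give the length of the longest transcript. Replicates 1 and 2 lie close together, and replicate 3 is the lowest in all but TraesCS1D02G029900.

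At the other end, 15 long genes were not expressed by the median of the replicates. They had 6003 to 10572 bases, 11 of them had 0 estimated counts in every replicate, and the other 4 had at most 4.77 in a single one. The longest without any count were TraesCS2D02G441100 (8662 bases), TraesCS6A02G247100 (8589 bases, 2 transcripts), TraesCS2B02G463200 (8470 bases) and TraesCS4B02G004000 (7544 bases). Of the 15, 6 lay on the chromosomes of group 2 and 7 on those of group 7, which hold 16.6% and 15.3% of the long genes, and 2 lay elsewhere. The other high-confidence genes also had their lowest expressed shares on groups 7 (64.5%) and 2 (65.5%), against 66.5% to 69.4% on the remaining groups. On groups 1, 3 and 5 all long genes were expressed, 64, 66 and 78 of them. No test was made of this distribution.

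Long genes had more listed isoforms than the other genes pooled, but not more than the other genes nearest to them in length. They averaged 1.68 transcripts per gene (SD over genes 1.26), against 1.24 (SD 0.708), and 201 of them (39.3%) had more than 1, against 15.8% of the others. Those with 5 or more numbered 10 (1.96%), against 0.776%. By length, the mean was 1.02 under 600 bases, 1.71 at 3000 to 3999, 2.05 at 4000 to 4999 and 1.93 at 5000 to 5999 bases. In the classes of long genes it was 1.69 at 6000 to 6999 bases, and lay between 1.41 (12000 bases and over) and 1.82 (8000 to 9999 bases). A gene with more transcripts has more chances that its longest is long, and the part of this in the difference was not tested. Where the shortest transcript as well had to reach 6000 bases, the difference between the means was 0.11 in place of 0.43. That rule moves genes that also list a shorter transcript into the comparison group, so a fall is built in and decides nothing here. Genes with more transcripts were more often expressed in both groups. At least 1 TPM was reached by 64.2% of the 310 long genes with 1 transcript, 74.2% of the 120 with 2 and 93.8% of the 81 with 3 or more, with replicate SDs of 6.25 to 7.84 percentage points. In the other genes these shares were 30.8%, 61.2% and 75.5%. The difference between long and other genes was thus largest among genes with a single transcript.

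Which isoforms carried the reads could be asked of 83 genes. Of 197 expressed long genes with 2 or more transcripts, 114 list only transcripts of 6000 bases or more, so that all of their TPM comes from long isoforms by construction. The other 83 also list a shorter transcript. In these, the share of the gene's TPM that came from transcripts of 6000 bases or more had a median of 62.1%, 64.5% and 55.9% in replicates 1, 2 and 3. It was at least 99% in 20 genes and below 50% in 26 genes (31.3%), or below 50% in 33.7% ± 4.34 in single replicates (SD, n = 3). Shorter isoforms thus held most of the TPM in a part of these genes. Of the genes with at least 100 estimated counts, the share was lowest in TraesCS1A02G342500 (a median of 0.834%), followed by TraesCS1B02G017800. In TraesCS1A02G342500, a transcript of 1889 bases had 8.36, 8.89 and 4.98 TPM and that of 6084 bases had 0, 0.0748 and 0.0477 TPM. The assignment of reads to isoforms that overlap in sequence was made by the authors' quantification and carries an error that the tables do not give.

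The genes with the most isoforms showed this uncertainty. TraesCS3A02G248800 has 16 transcripts of 4707 to 8207 bases and gave 3.88, 3.82 and 2.66 TPM in total, of which a median of 51.6% came from those of 6000 bases or more. Its longest transcript, of 8207 bases, had at most 0.00906 TPM, and one of 4707 bases had 0.491, 0.00546 and 0.366 TPM, so that single isoforms varied between replicates far more than the gene. TraesCS2B02G137400 (10 transcripts) had 1.23, 1.29 and 0.489 TPM, 59.1% of it from long isoforms. TraesCS1B02G154200 (9 transcripts) had 4.99, 4.76 and 2.70 TPM, of which 28.7% was so. TraesCS3B02G322600 (also 9) had 4.54, 4.99 and 1.93 TPM, of which 24.7% was so, and TraesCS3B02G277500 (6 transcripts) had 2.31, 2.12 and 1.57 TPM, of which 80.4% was so. The longest listed transcript had the most reads of its gene in TraesCS2B02G137400 but not in the other 4 genes.

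The replicates agreed closely on long genes in 2 of the libraries and less in the other. The comparison used 482 long genes whose median replicate held at least 10 estimated counts. Among them, the Pearson correlation of log2(TPM + 0.1) was 0.996 between replicates 1 and 2, 0.974 between 1 and 3 and 0.973 between 2 and 3. For 55851 other genes it was 0.984, 0.941 and 0.933. The order changed with depth. At 10 to 100 estimated counts the correlations were 0.851, 0.549 and 0.564 in long genes, against 0.903, 0.731 and 0.688 in the others. At 100 to 1000 counts they were 0.969, 0.807 and 0.811, against 0.964, 0.874 and 0.856. At 1000 to 10000 counts they were 0.988, 0.946 and 0.940, against 0.983, 0.915 and 0.915. These are correlations across genes, which are not independent replicates. At equal counts a long gene has a lower TPM, nearer to the pseudocount of 0.1, and the part of this was not tested. The SD of log2(TPM + 0.1) over the 3 replicates had a median of 0.22 in long genes and 0.40 in the others at 10 to 100 counts. It was 0.47 and 0.41 at 100 to 1000 counts, and 0.57 and 0.41 at 1000 to 10000. Over all these depths this SD had a median of 0.54 in long genes and 0.40 in the others, so that the spread appeared larger in long genes. Without replicate 3 the order was the opposite, with 0.07 in long genes and 0.12 in the others. With replicates 1 and 3 it was 0.63 and 0.44, and with replicates 2 and 3 it was 0.67 and 0.49. The larger spread of long genes was thus seen only in sets of replicates that include replicate 3. After rescaling each library by median-ratio size factors, long genes had 0.25 and the difference to the others was 0.0014.

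Replicate 3 also differed from the other replicates mostly in one direction, and the part of this in the spread was not tested. Relative to the mean of replicates 1 and 2, the log2(TPM + 0.1) of replicate 3 differed by a median of -0.92 in long genes and -0.55 in the others, a gap of -0.37. Without replicate 2 the gap was -0.39 and without replicate 1 it was -0.37. After rescaling it was -0.35 with median-ratio factors and -0.34 with TMM factors. Such rescaling divides all genes of a library by 1 factor. It could thus change a gap between groups only through the pseudocount, and decides nothing here. Replicate 2 minus replicate 1 had a median of 0.05 in long genes and 0.07 in the others. Of the 482 long genes, 462 (95.9%) were lower in replicate 3 than in both other replicates, against 75.3% of the other genes, with 75.5% over all high-confidence genes. The shift was larger in longer classes well before the limit of 6000 bases. It was -0.47 under 600 bases, -0.42 at 600 to 999 bases, -0.60 at 2000 to 2999, -0.84 at 5000 to 5999, -0.89 at 6000 to 6999 and -1.08 at 12000 bases and over. Spearman's rho between length and the shift was -0.162 across the 482 long genes and -0.126 across the others, given as a description.

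At 1000 to 10000 estimated counts the shift was -0.99 in 312 long genes and -0.66 in 10317 others. Within classes of level it was -0.61 in 83 long genes and -0.36 in the others at 0.1 to 1 TPM. It was -0.99 and -0.65 at 1 to 5 TPM, -0.97 and -0.66 at 5 to 10 TPM, and -0.94 and -0.55 at 10 TPM and over. Among 47 long genes with 10 to 100 counts it was -0.30, against -0.32 in the others, so that the gap was not seen at the lowest depth, where the pseudocount also weighs more. The replicates are single libraries, and the shift of 1 of them has no replicate of its own. RNA quality values were not analysed here.

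**Figure D4:**
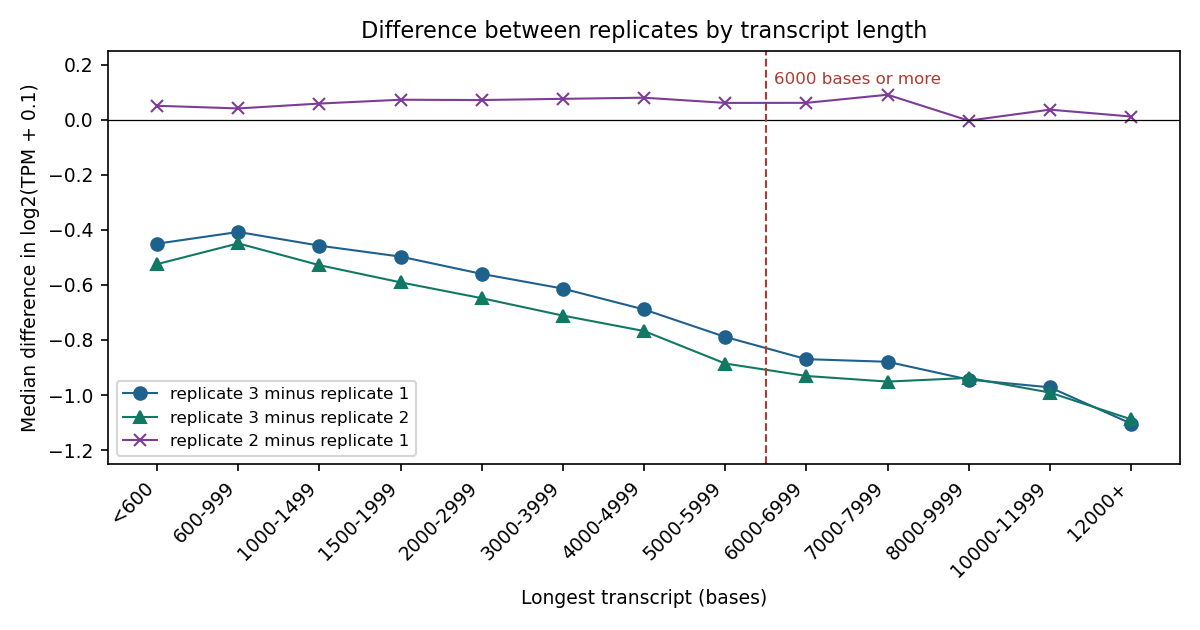
Median difference in log2(TPM + 0.1) between replicates by the length of the longest transcript in bases, over high-confidence genes with at least 10 estimated counts in the median replicate. The differences of replicate 3 to replicates 1 and 2 reach -1.10 and -1.09 at 12000 bases and over, while replicate 2 minus replicate 1 stays between -0.0037 and 0.090.

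The long genes with the largest spread stood out from this general shift. TraesCS3B02G299800 (7037 bases) had 14.2, 17.6 and 2.70 TPM in replicates 1, 2 and 3, TraesCS3D02G266400 (7383 bases) had 8.81, 9.89 and 2.20 TPM, and TraesCS3A02G266300 (6854 bases) had 10.5, 12.6 and 3.01 TPM. Relative to the mean of replicates 1 and 2, replicate 3 differed by -2.51, -2.03 and -1.90 on the log2(TPM + 0.1) scale. They lie at 48.7%, 48.5% and 48.8% of the gene order on chromosomes 3B, 3D and 3A, 1 on each subgenome, and rest on at least 1179 estimated counts in each library. TraesCS1D02G029900 (6041 bases) went the other way, with 0.371, 0.245 and 1.47 TPM, on 172, 109 and 639 estimated counts.

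The subgenomes held similar numbers of long genes. Subgenome A had 161 (31.5%, exact interval 27.5 to 35.7), B had 180 (35.2%, 31.1 to 39.5) and D had 170 (33.3%, 29.2 to 37.5), where the other high-confidence genes fell 33.6%, 33.9% and 32.5% into A, B and D, each within the interval. The share expressed was 96.9%, 96.7% and 97.6%. From the medians of the replicates per gene, the median TPM of expressed long genes was 2.83 in A, 2.37 in B and 2.79 in D. The medians of single replicates had SDs of 0.867, 0.786 and 0.889 (n = 3). The replicates share their libraries across the subgenomes, and within each replicate B was the lowest, with 2.62, 2.60 and 1.25 TPM, against 2.84, 2.99 and 1.42 TPM in A and 2.83, 2.98 and 1.37 TPM in D. At least 1 TPM was reached by 75.8% of the long genes in A, 69.4% in B and 68.8% in D, so that here B was not the lowest. The replicate SDs of these shares were 8.79, 6.76 and 4.93 percentage points. Neither difference was tested. By chromosome, long genes made up between 0.325% (3A, 17 genes) and 0.649% (6D, 26 genes) of the high-confidence genes. By homoeologous group they made up 0.588% on group 6 and 0.401% on group 3. By the median of the replicates, the share with at least 1 TPM was 89.4% on group 3, 82.7% on group 6, 54.7% on group 1 and 62.4% on group 2. The shares in single replicates had SDs of 4.37, 10.1, 2.39 and 9.51 percentage points. Among the other genes the groups lay between 34.1% and 39.4%. The range between groups of chromosomes was thus wider in the long genes, which number 64 to 85 a group, and it was not tested.

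For position, the high-confidence genes of each chromosome were ranked by the number in their identifier and divided into 10 bins of equal size. Long genes were most frequent in bins 4 (75 genes, 14.7%) and 10 (71 genes, 13.9%) and least in bins 2 (33 genes, 6.46%) and 9 (36 genes, 7.05%), where the other genes had 9.98% to 10.02% in each bin. The exact intervals of bins 4, 10, 2 and 9 (11.7 to 18.0, 11.01 to 17.2, 4.49 to 8.95 and 4.98 to 9.62) do not hold the share of the other genes. These bins are the extremes of 10, picked by their values. The intervals treat genes as independent, though some long genes lie in runs, and so may be too narrow. No test was made. Bins 1 and 10 together, the chromosome ends, held 23.1% of the long genes (19.5 to 27.0) and 20.0% of the others. This excess was not stable, since with 2 bins taken at each end the difference was -3.42 percentage points in place of 3.11, and among genes of 8000 bases or more it was -6.72. Gene rank is not distance in bases, which was not used here.

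Expression at the chromosome ends was read on several measures. In bins 1 and 10, 97.5% of 118 long genes were expressed, and in the inner bins 96.9% of 393, with replicate SDs of 0.489 and 0.509 percentage points. The other genes had 56.1% at the ends and 69.9% in the inner bins, with replicate SDs of 1.01 and 1.03 percentage points. At least 1 TPM was reached by 66.1% of the long genes at the ends and 72.8% in the inner bins, and by 26.4% and 38.7% of the others. For long genes the shares in single replicates had SDs of 4.89 and 7.36 percentage points (n = 3). All these shares are by the median of the replicates. The ends were unlike each other, with 53.2% of long genes in bin 1 and 74.6% in bin 10, and replicate SDs of 2.46 and 6.51 percentage points. The median TPM of expressed long genes was 2.58 at the ends and 2.76 in the inner bins, lower at the ends in each replicate, and in the others it was 0.817 and 1.42. The difference between these contrasts was not tested.

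By bin, the share of long genes with at least 1 TPM was lowest in bin 8, followed by bin 1, and was higher in the remaining bins, up to 84.7% in bin 5. The expressed share was lowest in bins 8 (91.5%) and 6 (92.5%). In bin 8, 17 of 47 long genes (36.2%) had at least 1 TPM, close to the 33.8% of the other genes there, whereas in all bins but this one 347 of 464 (74.8%) did. In single replicates it was 36.2%, 36.2% and 25.5% in bin 8. The expressed long genes of bin 8 had a median of 0.415 TPM, and 16 of the 47 lay below 0.1 TPM, of 64 such long genes in all. Chromosomes of group 2 contributed 22 of the 47, of which 5 had at least 1 TPM, and of the 25 on other groups 12 (48.0%) did. Bin 8 and the runs described next were singled out after the values were seen.

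**Figure D5:**
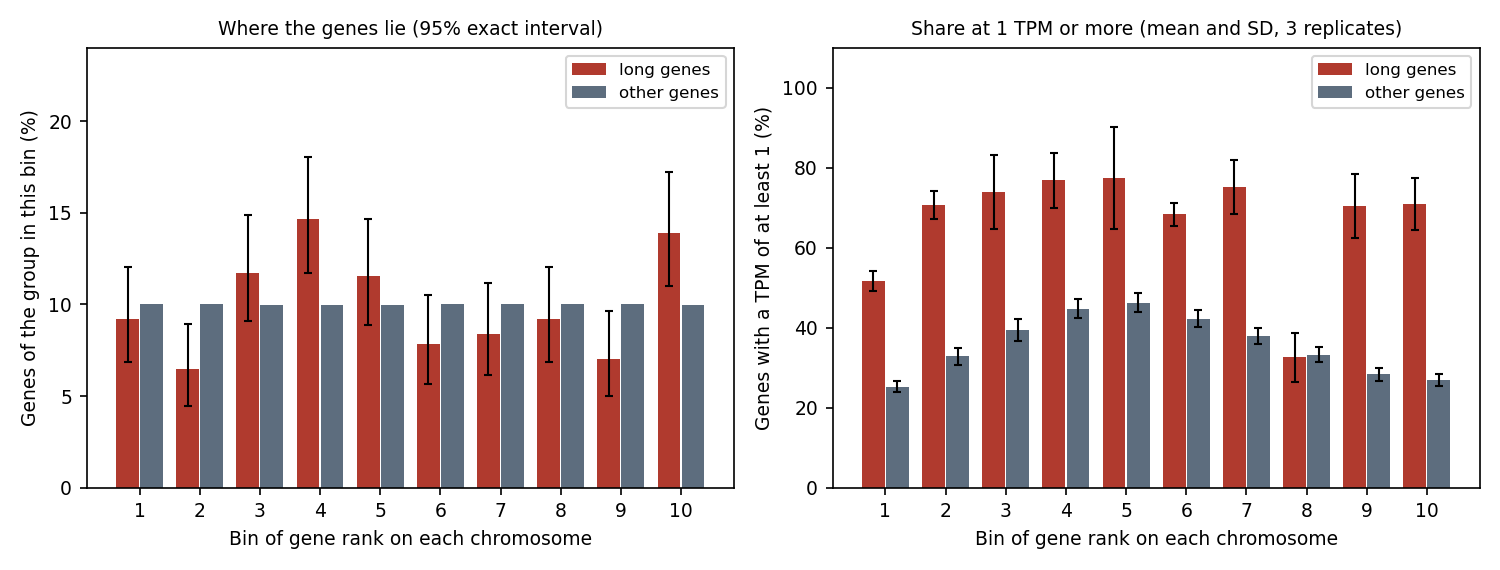
Left, share of the 511 long genes (red, with 95% exact interval) and of the other high-confidence genes (grey) in each of 10 bins of gene rank, from the first to the last identifier of each chromosome. Right, share of each group (%) with a TPM of at least 1, as the mean and SD of the 3 replicates taken singly. In bin 8 the bars of long and other genes stand at 32.6% and 33.3%, and in every other bin the bar of the long genes is the higher.

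Part of the low values in bin 8 came from runs of long genes close together in the gene order. On chromosome 2B, 7 long genes of 6118 to 8916 bases lay within 22 consecutive high-confidence genes, from TraesCS2B02G462400 to TraesCS2B02G464500. Their TPM was at most 0.737, 0.625 and 0.339 in replicates 1, 2 and 3, with a median over the 7 genes of 0.0829, and TraesCS2B02G463200 had 0 throughout. On chromosome 2D, 6 long genes of 6101 to 8963 bases lay within 26 genes, from TraesCS2D02G440100 to TraesCS2D02G442600, with a median of 0.0326 TPM and at most 0.482, 0.420 and 0.340 TPM. In this run 2 genes had a median of 0. Another run, of 4 genes within 6 from TraesCS2B02G486100 to TraesCS2B02G486400, had 6000 to 6466 bases and medians of 0.116 to 2.69 TPM, and only its first gene passed 1 TPM. A run was any set of at least 4 long genes each within 15 ranks of the next, and these were all that the high-confidence genes held. If neighbouring genes of like length are near-identical in sequence, reads may have been divided among them or set to 1 of them, and their single values are uncertain.

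Direct neighbours of similar length did not always share a level. Of 7 pairs of long genes next to each other in the order, TraesCS3B02G332300 and TraesCS3B02G332400 (6647 and 6611 bases) had 6.96, 10.1 and 4.21 TPM, and 5.71, 7.49 and 3.17 TPM. TraesCS3D02G297800 and TraesCS3D02G297900 (6697 and 6510 bases) had 6.84, 8.80 and 3.93 TPM, and 3.29, 4.89 and 2.00 TPM. In TraesCS4D02G166400 and TraesCS4D02G166500 (7399 and 6531 bases) the values were 3.23, 3.58 and 1.54 TPM, and 0.0525, 0.0660 and 0.0231 TPM. In these 3 pairs the first gene had the higher value in every replicate, by the widest margin on 4D, and replicate 2 was the highest in both genes. TraesCS2B02G486100 was likewise above TraesCS2B02G486200. The order was the opposite in every replicate for TraesCS2D02G440100 and TraesCS2D02G440200, and for TraesCS6D02G159300 (0.930, 1.07 and 0.461 TPM) and TraesCS6D02G159400 (1.41, 1.55 and 0.613 TPM). TraesCS2B02G462400 and TraesCS2B02G462500 were mixed.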

How the data were processed

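Poly(A) RNA of shoots from 3 biological replicates was sequenced as directional libraries. The submitters' processing notes name Trimmomatic 0.36 and kallisto. The study's methods name an annotation derived from that of the IWGSC wheat reference for its analyses of genes. The kallisto version, its settings and its transcript index are not given in the sources used here. Per the file headers, the authors deposited for each of 193258 transcripts a length, an effective length, an estimated count without any normalization, which can be fractional, and a value in TPM, scaled to the same total in each library. Both were summed over the transcripts of a gene, and each gene was given its median over the replicates, following the study's methods. Mean fragment length was taken as length minus effective length plus 1.

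Reads shared by near-identical copies or isoforms were divided by the authors' quantification. Only values with counts behind them limit precision here: the long genes held 498881 to 1033365 estimated counts a library. No test was made, since there is 1 condition and genes are not replicates. Errors are SDs over the replicates taken singly (n = 3), which measure only the spread between these samples. Those after ± stand with the mean of the single replicates, and SDs named in words can stand beside values from the medians over the replicates. The errors used for the alternatives are described with them. Replicate agreement used log2(TPM + 0.1) for genes with at least 10 estimated counts in the median replicate. The functions were tested on simulated data. The reference gene table held 0 of the identifiers in the files, so names, roles, coordinates and sequences were not used.

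The members, the tables and the alternatives were chosen with earlier results of these data known. Named genes are the 5 longest, the 6 with the highest median TPM, the 3 with the most estimated counts, the 5 with the most transcripts, the 4 with the largest SD of log2(TPM + 0.1) among those with at least 100 estimated counts in every replicate, the 4 longest with 0 counts in all replicates, the 2 with the lowest share of TPM from long transcripts and at least 100 counts, and the 2 on either side of the limit. Genes in runs and neighbouring pairs, and bin 8, were named after their values were seen. Alternatives were other limits for expression, the mean of the replicates, leaving out a replicate, other length limits, genes with 1 transcript, other pseudocounts and count filters, and rescaled TPM. TMM factors came from edgeR 4.0.16 in R 4.3.3. All else was computed with pandas 2.3.3, scipy 1.17.1 and numpy 2.4.6 in Python 3.11.15, and drawn with matplotlib 3.10.9.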

Additional observations from a re-analysis of the deposited data

Results flagged for a closer look

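Low-confidence genes were not part of the comparison, and 61 of them had a transcript of 6000 bases or more. Of these, 49 had over 3 estimated counts in all 3 replicates, a signal above what a count of 0 allows in a set that the comparison left out, and 56 (91.8%) had a median TPM above 0, against 50.8% of the other low-confidence genes. The study's methods state that its annotation retained low-confidence genes only where they overlapped a histone mark peak. If the deposited transcripts follow that annotation, these shares are those of a preselected set and not of all wheat low-confidence genes. Among the 61, the expressed ones had a median of 0.747 TPM, and 39.3% of the 61 reached 1 TPM. The highest was TraesCS2A02G130610LC (6363 bases) with 10.4, 10.6 and 4.36 TPM in replicates 1, 2 and 3. Relative to the mean of replicates 1 and 2, replicate 3 differed by a median of -0.79 in log2(TPM + 0.1) among those with at least 10 estimated counts.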

How the results depend on the processing

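Of 108 values under alternatives, 61 stayed within the error set for their result, 43 moved beyond it and 4 changed sign. That error was the SD over single replicates for most results. For subgenome share, outer position and transcripts per gene it was the margin of a 95% interval over genes. For the replicate spread and its difference it was the SD over the 3 pairs of replicates. The error of the spread difference, 0.135, exceeded the difference of 0.131, so its fall to 0.0014 after median-ratio rescaling counts as within. For the shift it was the SD over 2 pairs that share replicate 3, only 0.018. The tally thus depends on how each error was set. The median share of TPM from long isoforms, 100% in each of 4 alternatives, is fixed by the genes that list only long transcripts. The difference in expressed share, 29.9 percentage points, was 33.2, 36.7 and 35.0 at 0.1, 0.5 and 1 TPM, 35.7 at 3 estimated counts, 23.7 with the mean of the replicates, 34.0 in genes with 1 transcript, 19.9 in lengths not divisible by 3, and 24.98 to 26.96 when a replicate was left out. The expressed share of long genes itself was 87.5%, 79.3%, 71.2%, 96.5% and 97.8% under the first 5 of these, 96.5% with 1 transcript, 97.97% in lengths not divisible by 3, 96.1% from 8000 bases and 97.5% to 97.7% with a replicate left out. The log2 ratio of median TPM, 1.06, was 0.67 at 3 estimated counts, 0.74 from 5000 and 0.72 from 8000 bases, and -0.35 at 1 TPM; that of median counts, 3.48, was 3.04, 1.90 at 1 TPM, 3.76 with the mean of the replicates, 3.01 from 5000 bases and 3.93 with 1 transcript. From 5000 and 8000 bases, long genes held 0.453% and 0.0401% of the TPM and 2.56% and 0.402% of the counts. With a replicate left out, the median spread of long genes was 0.070 to 0.67 and its difference from the others -0.050 to 0.19, negative only without replicate 3. The gap in the shift of replicate 3, -0.37, was -0.32 with a pseudocount of 1 TPM, -0.48 without a filter, -0.31 at 100 counts, -0.35 and -0.34 after median-ratio and TMM rescaling, -0.28 against other genes of 2000 bases or more, -0.32 at 1000 to 10000 counts, and -0.39 to -0.37 with replicate 2 or 1 left out. Without replicate 3 it has no value. Rescaling, with 1 factor for each library, could change this gap only through the pseudocount. The difference in outer position was -6.72 from 8000 bases and -3.42 with 2 bins at each end. The difference in transcripts per gene, 0.43, was 0.58 from 5000 bases and 0.11 where the shortest transcript had 6000 bases. The cause of these changes was not tested. Lengths not divisible by 3, long genes with most TPM from long transcripts, and 1000 to 10000 counts were chosen after seeing the data. No paired analysis was possible because there is 1 group.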
